A study of Mus musculus with 16 samples.

Results

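Genes that are widely used as read-outs of Wnt/beta-catenin signalling were described here in mouse ileal epithelium on its way from normal tissue to tumour. The list held 9 genes, Axin2, Myc, Ccnd1, Cd44, Ephb2, Ephb3, Lef1, Tcf7 and Tcf4, and its probe sets were all those whose only gene symbol in the array's annotation was one of these names. This gave 11 probe sets of 7 genes among 12422 probe sets that were not array controls. Ephb2 and Tcf7 had no probe set of their own under that annotation and were not analysed here. Each of the 16 Affymetrix MG_U74Av2 arrays was hybridised with amplified RNA from cells of the ileum, the last stretch of the small intestine, that had been cut from tissue with a laser. By the sample titles, 6 arrays were WT, 5 were adenoma (a benign tumour) and 5 were carcinoma (an invasive tumour), and all 3 groups shared the tissue, the capture and the amplification. Genotype, alleles, age, treatment and the number of mice were not given in the sources used here. If several captures came from the same mouse, the p-values below are too small, since they then measure the spread between captures and not between animals. The number of arrays limits the precision.

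In canonical Wnt signalling, secreted Wnt ligands bind Frizzled receptors and LRP co-receptors at the cell surface and stop a destruction complex of Apc, Axin and glycogen synthase kinase 3 from marking beta-catenin for degradation. Stabilised beta-catenin enters the nucleus and binds DNA-bound factors of the TCF/LEF family, which then activate their target genes. In the intestine the pathway maintains the dividing cells at the crypt base, and loss of Apc, which leaves it permanently active, is a classical first step of adenoma formation.

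The list carries a naming trap that bears on its most changed member. The protein long called TCF-4, the main TCF/LEF factor of intestinal epithelium, is encoded by Tcf7l2, for which the gene table gives Tcf4 and TCF4E as older names. The gene whose current symbol is Tcf4 encodes a different protein, a basic helix-loop-helix factor of the E protein family, for which the same table gives E2-2, ITF-2 and SEF2. The probe set described below as Tcf4 belongs to the E protein gene, which is itself described as a beta-catenin target. Tcf7l2 was not on the list, and its probe sets are given with the nuclear partners of beta-catenin.

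TCF/LEF factors bind short AT-rich sites, so the promoter windows of the list were searched for such letters. The windows searched were RefSeq promoter windows (mouse build GRCm38.p6, 250 bases before to 50 bases after an annotated start). They belonged to Axin2, Cd44, Ephb2, Ephb3, Lef1 and Tcf7, 10 windows in all. No window of Myc, Ccnd1 or Tcf4 was searched, so the motif counts of the list do not cover these genes. The letters searched, on both strands, were AACAAAG or ATCAAAG or TACAAAG or TTCAAAG for TCF/LEF, and CACGTG for the E box, the site bound by Myc with its partner Max. Of all 32851 promoter windows in the table, 16.9% held a TCF/LEF match and 7.15% held an E box. Of the 10 windows searched for the list, 1 held a TCF/LEF match, and the same window held the E box. Both windows below are on the plus strand and read 5′ to 3′. The Axin2 window, shown because Axin2 is the most used read-out of the pathway, lies at chr11:108920099-108920398 and holds neither motif. The Lef1 window, shown because it holds both, belongs to the most downstream of 4 annotated Lef1 starts, at chr3:131156044-131156343, and the capitals mark the TCF/LEF letters at bases 104 to 110, while the E box at bases 172 to 177 is left in lower case and does not overlap them.
Axin2: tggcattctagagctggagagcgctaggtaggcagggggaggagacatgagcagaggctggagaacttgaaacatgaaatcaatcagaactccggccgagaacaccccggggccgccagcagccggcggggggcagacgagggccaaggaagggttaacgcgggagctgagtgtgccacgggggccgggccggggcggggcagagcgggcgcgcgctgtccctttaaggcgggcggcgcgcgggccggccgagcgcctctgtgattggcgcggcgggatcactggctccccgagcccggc
Lef1: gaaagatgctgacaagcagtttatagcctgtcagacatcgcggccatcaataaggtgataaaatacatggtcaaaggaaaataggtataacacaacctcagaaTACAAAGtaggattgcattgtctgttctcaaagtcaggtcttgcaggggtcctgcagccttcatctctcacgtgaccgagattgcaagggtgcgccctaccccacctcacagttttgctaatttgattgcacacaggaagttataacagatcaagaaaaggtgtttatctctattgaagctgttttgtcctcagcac
A match of this kind is a description of the letters, and its absence says only that they are not in these 300 bases.

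Before the list is described, the arrays themselves differed between WT and tumour. Transcripts spiked into each hybridisation had a mean log2 signal of 12.44 to 14.73 on WT arrays, 11.38 to 13.47 on adenoma arrays and 11.56 to 12.70 on carcinoma arrays. For Gapdh the log2 ratio between the 3′ and 5′ probe sets, a control for RNA length, was 4.09 to 5.02 on WT arrays, 5.52 to 6.12 on adenoma arrays and 4.95 to 6.45 on carcinoma arrays. Median signal per array ran from 126.8 to 234.2. The 12 epithelial marker genes on the array, among them villin (Vil1) and keratins, summed to a signal of 104989.3 to 222490.4 on WT, 76377 to 115296.1 on adenoma and 59577.4 to 129789.5 on carcinoma arrays, and none was at the floor throughout a group. Genes of other cell types also exceeded the floor, among them all 8 endothelial genes on the array in each group, so these markers do not show that the captured cells were epithelial alone. In bulk RNA of this kind, fewer cells of a type and less RNA per cell cannot be told apart.

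Of the 11 probe sets, 9, covering all 7 genes, were bright enough to test. A signal of 46.9 (5.55 on the log2 scale), the 25th percentile of all values, was taken as the floor, and a probe set was tested if it exceeded the floor on at least 5 of 16 arrays. Tcf4 alone passed the test in either tumour (limma, Benjamini-Hochberg adjusted over 10563 probe sets). This was 1 of 9 (11.1%) in adenoma against WT, where 7.77% of all tested probe sets passed (3.53% higher, 4.24% lower), and 1 of 9 in carcinoma against WT, where 8.68% of all passed (3.67% higher, 5.01% lower). In carcinoma against adenoma, 0 of 9 passed with limma, and 0.0379% of all probe sets passed. There limma gave an unadjusted p under 0.05 for 0 of 9 and for 2.44% of all. Before adjustment, limma gave p under 0.05 for 3 of 9 in each tumour against WT (33.3%), beside 23% and 23.5% of all probe sets: Tcf4 and Myc in both, Ccnd1 in adenoma, where it was lower, and Cd44 in carcinoma. The Cd44 probe set was tested only because tumour arrays exceeded the floor (0 of 6 WT, 2 of 5 adenoma and 4 of 5 carcinoma arrays), so its p is no support for a difference. The median log2 difference of the 9 was 0.21 in adenoma and 0.38 in carcinoma, where the median over all probe sets was -0.18 and -0.17, and 7 of 9 differences lay above 0 in each. These 7 include the Cd44 probe set in both tumours and, in adenoma, both Lef1 probe sets at 0.07 and 0.01. The 2 comparisons share the WT arrays, so their values are not independent of each other.

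**Figure D1:**
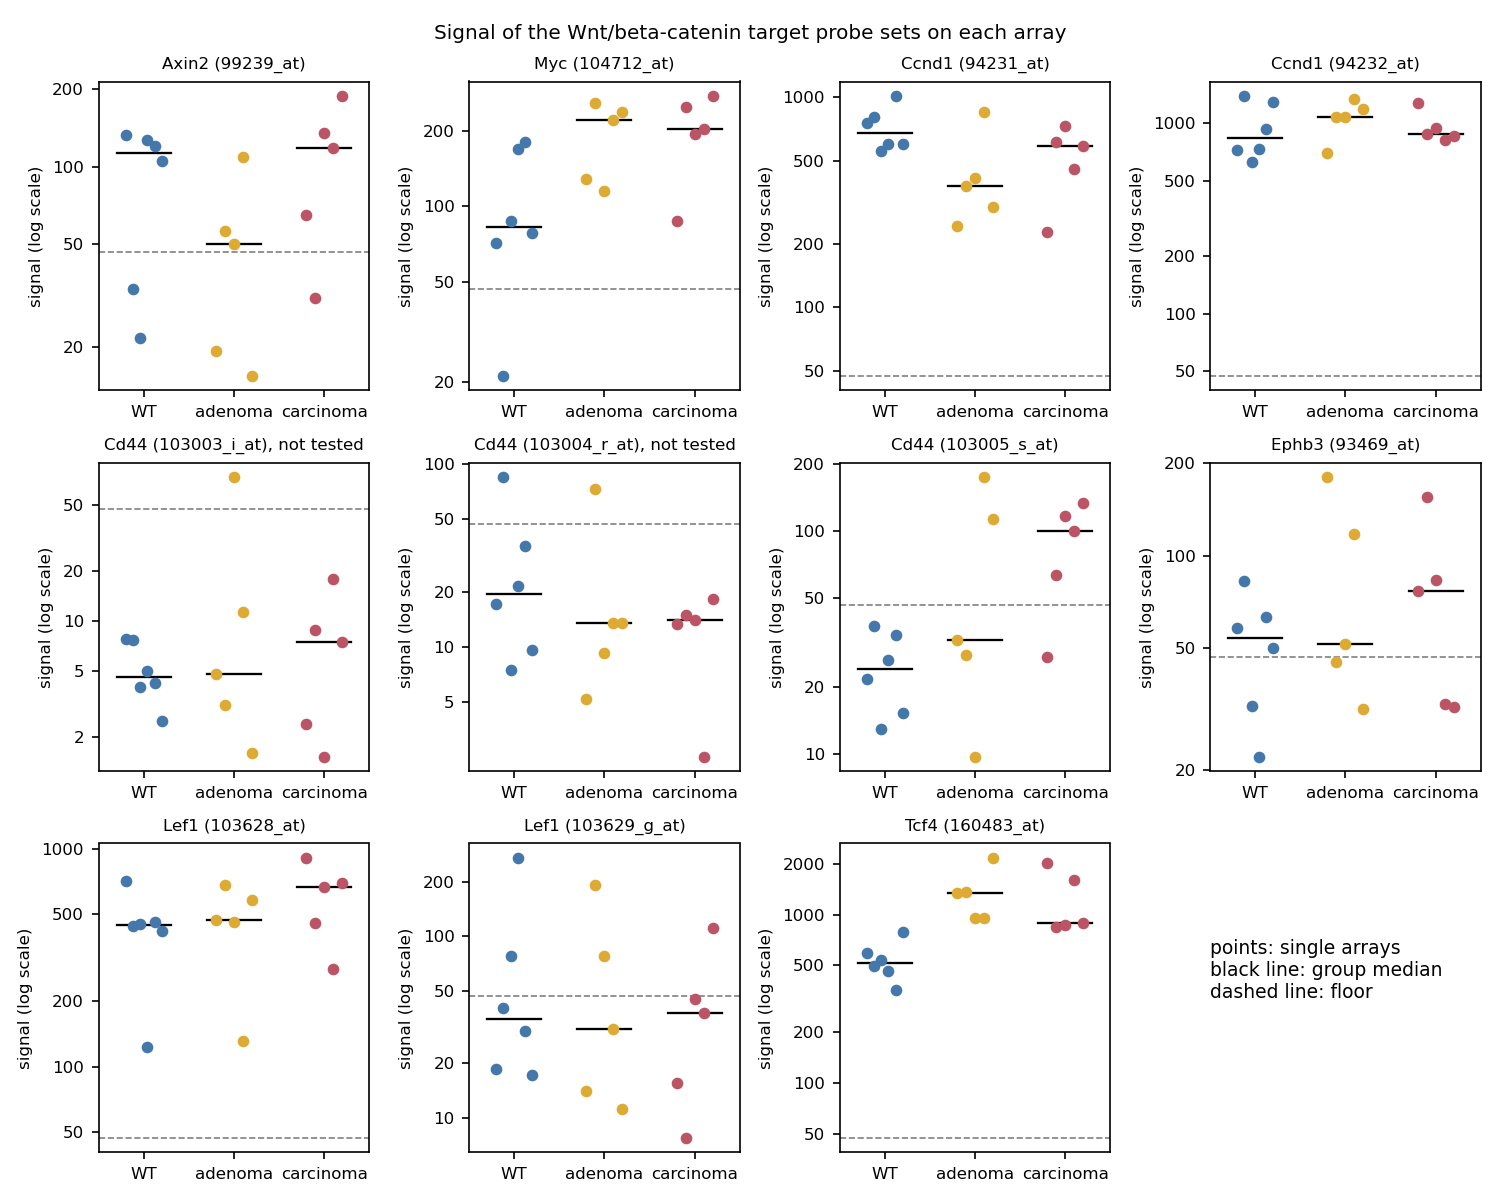
Signal of each of the 11 probe sets on every array (points, log scale) for WT (n = 6), adenoma (n = 5) and carcinoma (n = 5), with the group median as a black line and the floor of 46.9 dashed. For Tcf4 every tumour array lies above every WT array, whereas for the other 10 probe sets the groups overlap or lie partly at the floor.

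Tcf4, the E protein of the list, was higher in both tumours. On WT arrays its signal was 356.5 at the lowest, 518.7 at the median and 793.3 at the highest. The 5 adenoma arrays read 1347.5, 1362.7, 952.3, 959.5 and 2187.3, and the 5 carcinoma arrays read 2032.7, 849.5, 867.3, 1613.4 and 887.9. Every tumour array was thus above every WT array, as it was for 2.75% of all tested probe sets in adenoma and 2.78% in carcinoma. WT arrays averaged 9.04 ± 0.39 on the log2 scale (SD, n = 6), against 10.34 ± 0.49 for adenoma (SD, n = 5) and 10.19 ± 0.59 for carcinoma (SD, n = 5). Tcf4 was 2.47-fold higher in adenoma (log2 1.30 ± 0.31 SE, limma adjusted p = 0.0126) and 2.22-fold higher in carcinoma (1.15 ± 0.31, adjusted p = 0.0251). Carcinoma and adenoma differed by -0.16 ± 0.32, with a 95% interval of -0.83 to 0.52.

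The Tcf4 differences kept their direction but not their call in fits with a control measure as a covariate. The Gapdh ratio nearly separated WT arrays (4.09 to 5.02) from adenoma (5.52 to 6.12) and carcinoma arrays (4.95 to 6.45). Group and Gapdh ratio can thus hardly be told apart in such fits, here and elsewhere in this report. A call lost with the Gapdh covariate does not decide between them. Adding the Gapdh ratio as a covariate gave 1.57 ± 0.54 in adenoma (adjusted p = 0.275) and 1.39 ± 0.51 in carcinoma (0.268), and adding the spike-in signal gave 0.99 ± 0.39 (0.174) and 0.84 ± 0.39 (0.29). The carcinoma difference also lost its call without carcinoma 1 (0.95 ± 0.31, adjusted p = 0.081), the highest carcinoma array, and without carcinoma 4 (1.03 ± 0.33, 0.0735), whereas the adenoma call held with any single array left out.

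E proteins act as dimers, and the Id proteins, which lack a DNA-binding region, hold them in inactive pairs. The list described here leaves out Tcf4 itself and Id2, which is counted with the other reported targets below. Its 5 genes on the array were all tested, and 3 of 5 rose in adenoma and 2 of 5 in carcinoma, with none lower. Among all probe sets 3.53% and 3.67% were higher. The list was drawn up with earlier results of these data known, so its share is no independent evidence. The median log2 difference of the list was 1.28 in adenoma and 0.86 in carcinoma. The E protein Tcf12 was 2.56-fold higher in adenoma (1.36 ± 0.35, adjusted p = 0.0208) and 2.73-fold in carcinoma (1.45 ± 0.35, 0.0128), with WT arrays at 724.1 to 2185 and carcinoma arrays at 2218.6 to 4187.7. The inhibitor Id3 was higher by 1.42 ± 0.40 in adenoma (adjusted p = 0.035) and by 1.48 ± 0.40 in carcinoma (0.0268). Id1 was higher in adenoma by 1.28 ± 0.29 (0.00963). None of these 5 calls was left when either the Gapdh ratio or the spike-in signal was added as a covariate. Id3 also lost its call without any 1 of 7 arrays in adenoma and 6 in carcinoma, and Tcf12 without any 1 of adenoma 1, 2 and 3 in that tumour. Id2 was higher by 1.95 ± 0.37 in adenoma (adjusted p = 0.00218) and by 1.88 ± 0.37 in carcinoma (0.00265). Both calls were lost with the spike-in covariate and without the 4 WT arrays of highest spike-in signal, but not with the Gapdh ratio. The inhibitor Id4 differed by -0.63 ± 0.39 (0.347) and -0.80 ± 0.39 (0.223).

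Markers of cell types other than epithelium were read beside Tcf4, because E proteins are not restricted to epithelium. For 14 fibroblast genes on the array the summed signal was 5208.7 to 12016.3 on WT, 8149.9 to 11814 on adenoma and 10383.8 to 20414.8 on carcinoma arrays. In carcinoma 4 of 20 fibroblast probe sets rose, those of Col1a1, Col1a2, Col5a2 and Dcn, and 1 of Col6a1 fell, while in adenoma 0 rose with limma and Fbln2 fell. The calls for Col1a2, Dcn and Col6a1 were each lost without any 1 of 8 or 9 arrays. For 8 endothelial genes the summed signal was 3228.6 to 6333.5 on WT, 4579.6 to 10934.8 on adenoma and 3926.7 to 11217.7 on carcinoma arrays, and Cdh5 and Flt1 rose in adenoma. For 15 genes of macrophages, neutrophils and dendritic cells it was 12656.8 to 33831.7, 10025 to 19279.2 and 12186.2 to 19606.6, with none higher and Irf8 lower in both tumours. In adenoma 1 probe set of Csf1r was also lower, a call kept in 11 of 28 alternatives. For 8 smooth muscle genes it was 4238.1 to 7234.5, 2504.4 to 6866.9 and 1472.4 to 2972.7. Acta2 and Myh11 were lower in both tumours, and the median of the 7 tested smooth muscle probe sets was -1.08 in adenoma and -1.12 in carcinoma. For 13 genes of B and plasma cells the summed signal was 3374.1 to 4035.5 on WT, 2992 to 4495.1 on adenoma and 3210 to 4416.3 on carcinoma arrays. Of 14 tested probe sets of that list, 4 were higher in each tumour (Blnk and Sdc1), while 4 were lower in adenoma (Blk, Cd79b, Jchain and Ms4a1) and 1 in carcinoma (Jchain). Among these lists, the genes below the floor throughout a group were Itgam and Smtn in all 3 groups, Cd72 and Cr2 in both tumours, Cd22 in carcinoma, and Pdgfrb, Adgre1 and S100a9 in adenoma. The part of these cells in the Tcf4 result was not tested.

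Lef1 encodes the TCF/LEF factor that is itself a target of the pathway. It had a pair of probe sets, and neither passed the test in any comparison. On the brighter one, 103628_at, WT arrays read 123 at the lowest, 446.25 at the median and 709.7 at the highest. Adenoma arrays read 469.5, 681.7, 459.6, 130.8 and 580.1, and carcinoma arrays 909.9, 457.8, 664.3, 281.5 and 697.3. The groups overlapped across most of their ranges, with 1 WT array (WT 4) and 1 adenoma array (adenoma 4) far below the rest of their groups. The log2 difference was 0.07 ± 0.46 in adenoma (adjusted p = 0.94) and 0.53 ± 0.46 in carcinoma (adjusted p = 0.508), with 95% intervals of -0.88 to 1.03 and -0.43 to 1.49.

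The second Lef1 probe set, 103629_g_at, was dim and gave another pattern. WT arrays read 17.3 at the lowest, 35.1 at the median and 271.3 at the highest, and only 2 exceeded the floor. Adenoma arrays read 14.1, 190.4, 78.0, 30.8 and 11.2, and carcinoma arrays 15.5, 7.7, 45.3, 37.8 and 110.4. Its differences from WT were 0.01 ± 0.47 in adenoma and -0.30 ± 0.47 in carcinoma (adjusted p = 0.994 and 0.736). WT 4 was the lowest WT array on the first probe set and the highest on the second, and across the 16 arrays the pair had a Pearson r of -0.28 on the log2 scale, given as a description.

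Lef1 is also a factor of T lymphocytes, so T cell markers were read beside it. The summed signal of 18 T cell genes was 2119.5 to 4645.5 on WT arrays, 1764.6 to 3728.5 on adenoma arrays and 1543.7 to 4594 on carcinoma arrays. Of 18 tested T cell probe sets, 0 were higher and 1, Il2rb, was lower in each tumour. Below the floor on every array of a tumour were Cd3e and Cd3g in both, Cd8b1 in adenoma and Cd8a in carcinoma. The other 15 of the 18 genes in each tumour, the CD3 genes Cd3d and Cd247 among them, exceeded it on at least 1 array. The part of T cells in the Lef1 values was not tested.

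**Figure D2:**
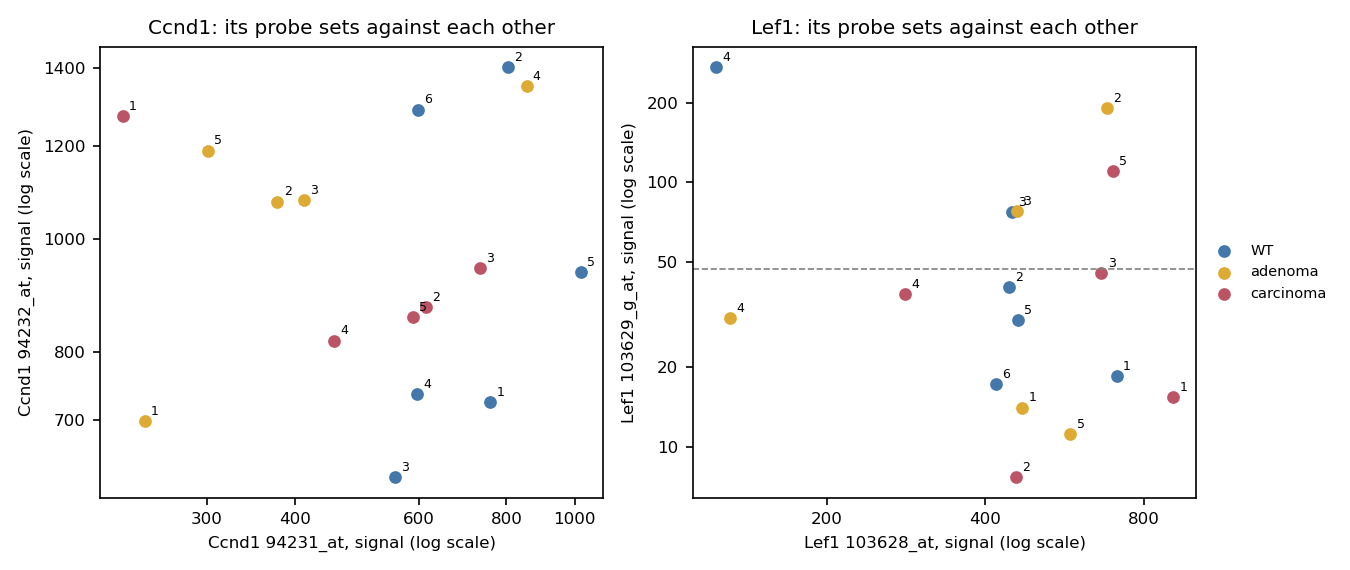
Signal of the probe sets of Ccnd1 (left) and of Lef1 (right) against each other on log axes, 1 point per array, numbered by replicate and coloured by group, with the floor of 46.9 dashed for the second Lef1 probe set. Probe sets of the same gene did not rank the arrays alike (Pearson r 0.00 for Ccnd1 and -0.28 for Lef1 over 16 arrays).

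Axin2 encodes the scaffold of the destruction complex that is induced by the pathway and restrains it, and it was the member that differed most between the tumours, without passing the test. WT arrays read 21.6 at the lowest, 112.55 at the median and 132.5 at the highest. Adenoma arrays read 19.3, 56.5, 50.2, 108.9 and 15.4, and carcinoma arrays 64.9, 30.9, 135.5, 118.0 and 188.7. Adenoma arrays lay below the WT median and carcinoma arrays spread from within the WT range to above it, with 4 of 6 WT, 3 of 5 adenoma and 4 of 5 carcinoma arrays above the floor. The log2 difference from WT was -0.59 ± 0.40 in adenoma (95% interval -1.42 to 0.24, adjusted p = 0.391) and 0.16 ± 0.40 in carcinoma (-0.67 to 0.99, 0.842). Carcinoma against adenoma it was 0.75 ± 0.41, with an interval of -0.11 to 1.62 and an unadjusted p of 0.085 (limma adjusted p = 1).

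Myc, the transcription factor that drives growth and ribosome production, was higher in both tumours on average but did not pass the adjusted threshold. WT arrays read 21 at the lowest, 82.8 at the median and 179.9 at the highest. Adenoma arrays read 128.9, 258.8, 115.5, 220.2 and 236.5, and carcinoma arrays 87.4, 249.2, 193.9, 202.8 and 276.0. Of the tumour arrays, 3 of 5 in adenoma and 4 of 5 in carcinoma exceeded the highest WT array, and the others overlapped with WT. Myc was 1.94-fold higher in adenoma (log2 0.95 ± 0.38, 95% interval 0.16 to 1.75, unadjusted p = 0.0217, limma adjusted p = 0.14) and 2-fold higher in carcinoma (1.0 ± 0.38, 0.20 to 1.80, 0.0167, adjusted p = 0.114). The call turned on how the arrays were scaled and on the control measures. After quantile normalization both differences passed (1.22 ± 0.32, adjusted p = 0.0222, and 1.30 ± 0.32, 0.0144), and once the Gapdh ratio entered as a covariate they were -0.15 ± 0.59 and 0.00 ± 0.56.

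**Figure D3:**
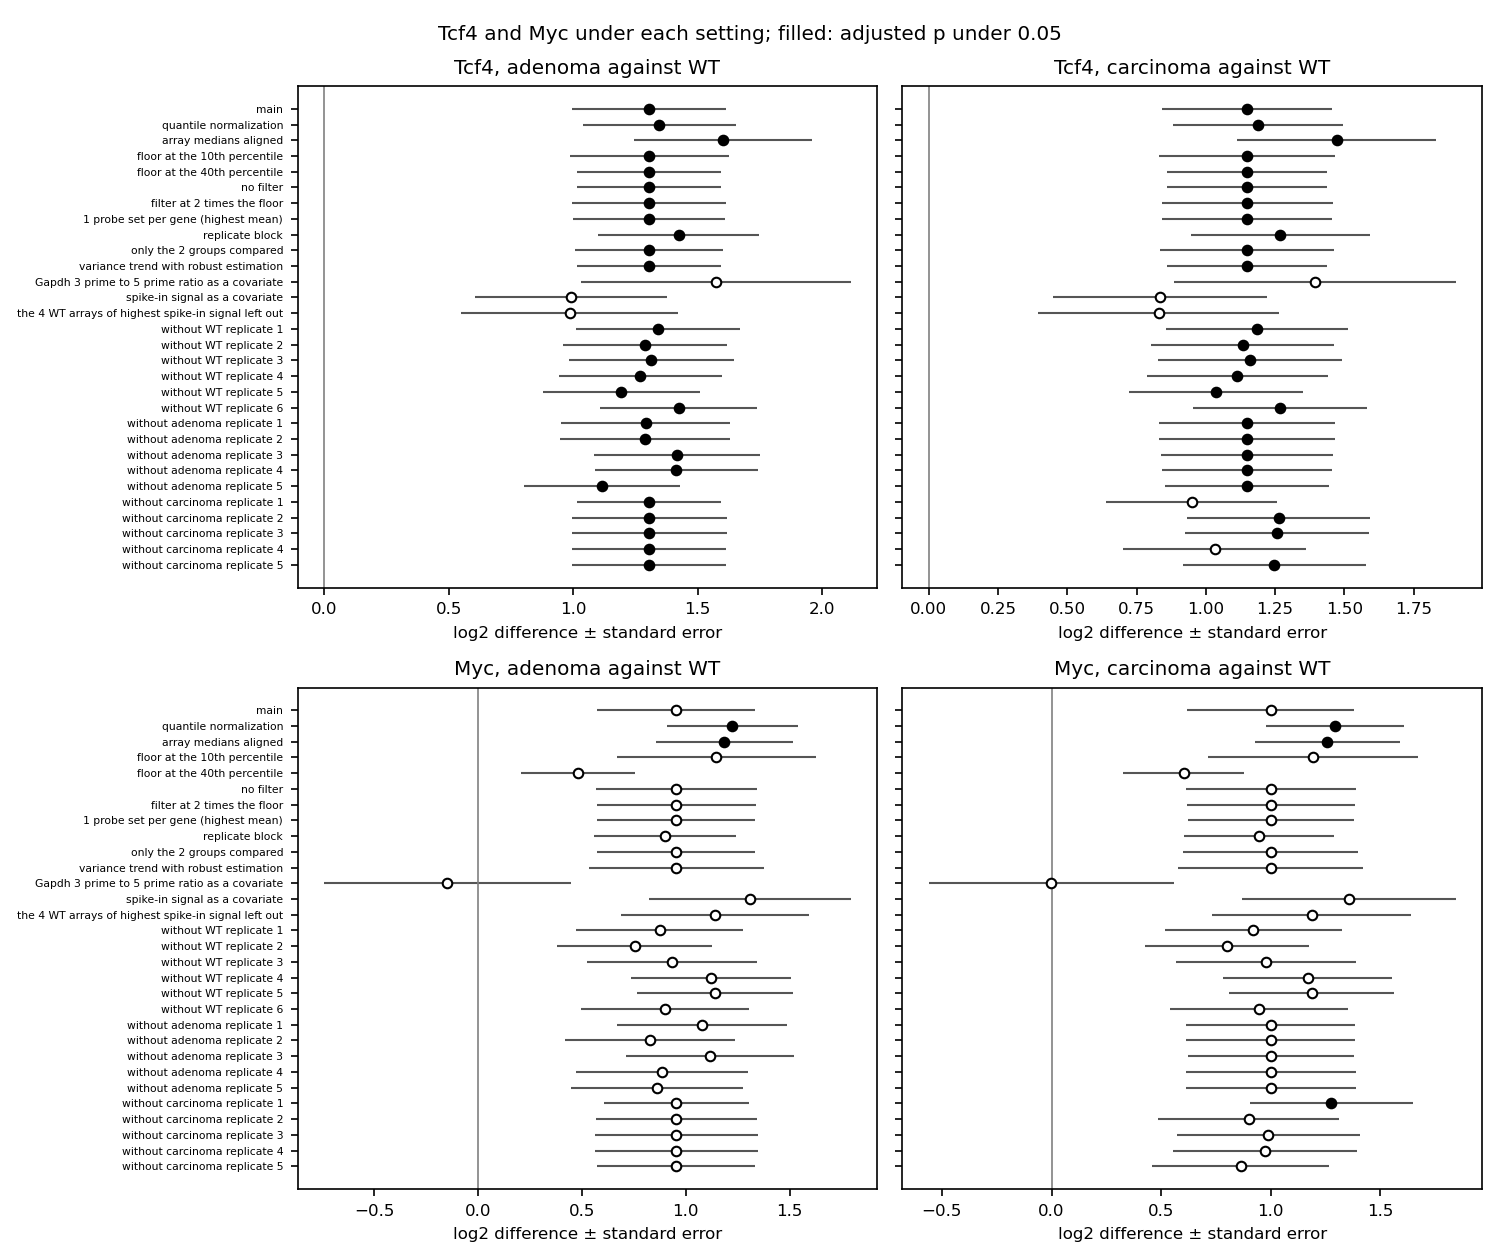
Log2 difference from WT (points) with its standard error (lines) for Tcf4 and Myc in adenoma and in carcinoma, in the reported fit and in 29 alternatives, with filled points for an adjusted p under 0.05. Tcf4 stays above 0 in all of them, from 0.99 to 1.60 in adenoma, and Myc reaches the threshold with quantile normalization or aligned medians but lies near or below 0 with the Gapdh covariate.

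Partners and responders of Myc were read next. Among 9 tested probe sets of the Myc family and its dimerisation network, Mycl rose in adenoma (1.06 ± 0.30, adjusted p = 0.0362) and none passed in carcinoma. Of 30 probe sets of transcripts known as Myc-responsive, 1 rose in adenoma, and 3 rose and 1 fell in carcinoma, with median differences of 0.09 and 0.12. These counts moved with the scaling: with array medians aligned, 5 rose in adenoma, 6 rose and 1 fell in carcinoma, and the medians were 0.38 and 0.43. Fibrillarin (Fbl), which modifies ribosomal RNA, rose in adenoma (1.47 ± 0.42, adjusted p = 0.0366) and carcinoma (1.54 ± 0.42, 0.0269). Ornithine decarboxylase (Odc1), the entry enzyme of polyamine synthesis, was 1.95-fold higher in carcinoma (0.96 ± 0.22, adjusted p = 0.00898), where its arrays read 2534.4 to 3752.5 against 1170.4 to 1979.8 in WT. Lactate dehydrogenase (Ldha) rose in carcinoma by 0.96 ± 0.29 (0.0455), and 1 of the probe sets of the cap-binding factor Eif4e, 162222_r_at, was at least 3.55-fold lower there (adjusted p = 0.0358), with all 5 carcinoma arrays below the floor. That probe set was tested only because WT arrays exceeded the floor, so its call is no support for a fall. The other Eif4e probe set, 99097_at, differed by 0.10 ± 0.30 in carcinoma (0.876). The call for Odc1 held with any single array left out but was lost with either control measure as a covariate and without the 4 WT arrays of highest spike-in signal, while those for Mycl, Fbl, Ldha and Eif4e were each lost without any 1 of 6 to 12 arrays.

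Ccnd1 encodes cyclin D1, which activates the kinases that start the cell cycle, and its probe sets pointed in different directions. On 94231_at, WT arrays read 554.5 at the lowest, 678.2 at the median and 1019.7 at the highest. Adenoma arrays read 244.6, 377.9, 412.4, 854.4 and 301.2, and carcinoma arrays 227.8, 614.1, 732.5, 454.5 and 589.1. Of the adenoma arrays, 4 of 5 lay below every WT array and adenoma 4 lay among the highest. The log2 difference was -0.83 ± 0.34 in adenoma (95% interval -1.54 to -0.12, limma adjusted p = 0.148) and -0.53 ± 0.34 in carcinoma (adjusted p = 0.354). Without adenoma 4 the adenoma difference was -1.11 ± 0.32 and passed (adjusted p = 0.0386).

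On the other Ccnd1 probe set, 94232_at, WT arrays read 625.6 at the lowest, 836.55 at the median and 1400.3 at the highest. Adenoma arrays read 698.7, 1075.8, 1079.5, 1349.7 and 1189.1, and carcinoma arrays 1273.0, 874.7, 943.5, 818.2 and 856.6. All 10 tumour arrays lay within the WT range. The log2 difference was 0.21 ± 0.27 in adenoma (95% interval -0.35 to 0.77, adjusted p = 0.663) and 0.05 ± 0.27 in carcinoma (-0.51 to 0.61, 0.937). Over the 16 arrays the pair had a Pearson r of 0.00, and of 0.16 for deviations from the group means.

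Among 23 tested probe sets of cyclin D partners, 1 fell in each tumour and none rose. The sister cyclin Ccnd2 fell in adenoma (-1.54 ± 0.42, adjusted p = 0.0297), where the arrays read 71.7 to 533 against 555.6 to 1249.8 in WT. The kinase inhibitor Cdkn2b, which opposes cyclin D kinases, was 2.6-fold lower in carcinoma (-1.38 ± 0.27, adjusted p = 0.0023), where the arrays read 129.4 to 288.7 against 346.7 to 722.6 in WT. The Ccnd2 call was lost without WT 2, WT 3 or adenoma 2, with array medians aligned, with no filter, with only the 2 groups fitted, with the Gapdh covariate and without the 4 WT arrays of highest spike-in signal. That for Cdkn2b held without any single array, but not with either control measure as a covariate or without those 4 WT arrays. The median log2 difference of these partners was -0.20 in adenoma and -0.33 in carcinoma. With array medians aligned, the counts turned to 1 higher and 0 lower in adenoma and 1 of each in carcinoma, and the medians to 0.08 and -0.002.

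Cd44 encodes the hyaluronan receptor of crypt cells and many tumour cells. Of its 3 probe sets, 103003_i_at and 103004_r_at were mostly below the floor and were not tested: the first exceeded it on 1 adenoma array, and the second on 1 WT and 1 adenoma array. On the third, 103005_s_at, all 6 WT arrays were below the floor, at 13.0 at the lowest, 24.15 at the median and 37.8 at the highest. Adenoma arrays read 32.6, 27.8, 9.7, 175.9 and 113.6, and carcinoma arrays 27.2, 64.0, 117.4, 100.3 and 134.2. Thus 2 of 5 adenoma and 4 of 5 carcinoma arrays rose above the floor and above every WT array. This probe set was tested only because tumour arrays exceeded the floor, and WT gives only a bound. Tumour arrays below the floor were set to it as well, so the fitted differences are not bounds. The log2 difference was 0.64 ± 0.36 in adenoma (limma adjusted p = 0.304) and 0.88 ± 0.36 in carcinoma (unadjusted p = 0.0246, adjusted p = 0.143), and neither passed.

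The ligands and cytoskeletal partners of CD44 gave 1 call among 8 tested probe sets in each tumour. Hyal2, a hyaluronidase, rose by 1.09 ± 0.28 in adenoma (adjusted p = 0.0203) and by 0.90 ± 0.28 in carcinoma (0.0498). The carcinoma call for Hyal2 was lost without any 1 of 14 arrays, and the adenoma call without adenoma 3, with only the 2 groups fitted, with either covariate and without the 4 WT arrays of highest spike-in signal. Ezrin (Ezr), which ties CD44 to actin, differed by 0.09 ± 0.29 and 0.12 ± 0.29 (adjusted p = 0.877 and 0.838).

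Ephb3 encodes a receptor tyrosine kinase that helps position cells along the crypt through contact with ephrin-B ligands, and Ephb2 is its close relative without a probe set here. WT arrays read 22 at the lowest, 54.1 at the median and 82.5 at the highest. Adenoma arrays read 181.2, 44.9, 51.6, 118.0 and 31.6, and carcinoma arrays 76.7, 155.5, 83.6, 32.9 and 32.0. In each tumour 2 of 5 arrays exceeded every WT array and the rest overlapped, with 10 of the 16 arrays above the floor. The log2 difference was 0.41 ± 0.38 in adenoma (95% interval -0.40 to 1.21, adjusted p = 0.547) and 0.38 ± 0.38 in carcinoma (-0.42 to 1.18, 0.577).

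Among 18 other tested probe sets of Eph receptors and ephrins, Epha2 rose in adenoma (1.08 ± 0.31, adjusted p = 0.0366), and Epha6 and Epha8 passed as lower in carcinoma (adjusted p = 0.0393 and 0.0475). Epha8 differed by -1.26 ± 0.39. For Epha6 only 1 of 5 carcinoma arrays exceeded the floor, against 5 of 6 in WT, so its fitted difference of -1.64 ± 0.48 depends on the floor. The list's median log2 difference was -0.47 in both tumours. The ephrin Efnb1, a ligand of EphB receptors, differed by -0.74 ± 0.35 in adenoma (adjusted p = 0.212) and by -1.08 ± 0.35 in carcinoma (0.0603). The calls for Epha2, Epha6 and Epha8 were each lost without any 1 of 7 to 11 arrays.

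**Figure D4:**
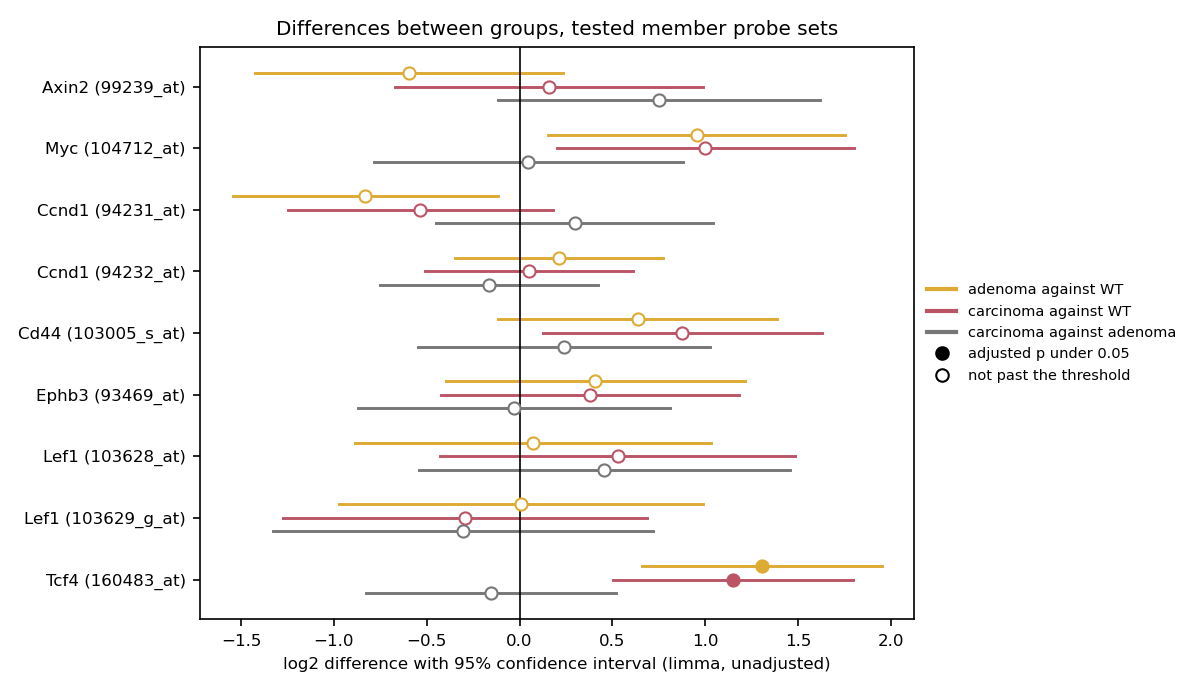
Log2 difference (points) with its unadjusted 95% interval from limma (lines) for the 9 tested probe sets in the 3 comparisons, with filled points for an adjusted p under 0.05. Only the Tcf4 differences from WT, 1.30 in adenoma and 1.15 in carcinoma, are filled, and all 9 intervals of carcinoma against adenoma include 0.

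The rest of the pathway was described in the order of the signal. Of 11 tested probe sets of Wnt ligands and their export, Wnt11, a ligand best known from non-canonical signalling, rose in adenoma (1.23 ± 0.36, adjusted p = 0.0456), and 1 probe set of Wnt10b fell in carcinoma (-1.43 ± 0.43, 0.0458). The call for Wnt11 was lost without any 1 of 12 arrays and that for Wnt10b without any 1 of 10. Of 16 probe sets of receptors and R-spondins, 0 passed in adenoma with limma, and in carcinoma 1 of the probe sets of the Wnt5a receptor Ror2, 93724_at, rose (0.94 ± 0.25, adjusted p = 0.022), a call lost without carcinoma 2, 3 or 4, with either covariate and without the 4 WT arrays. The other Ror2 probe set, 93723_at, gave -0.42 ± 0.24 in adenoma (adjusted p = 0.322) and -0.34 ± 0.24 in carcinoma (0.422). The stem cell receptor Lgr5, an R-spondin receptor and itself a target of the pathway, differed by 0.66 ± 0.42 in adenoma (adjusted p = 0.365) and by 1.27 ± 0.42 in carcinoma (0.0682), with carcinoma arrays at 174.5 to 390.3 and WT arrays at 11.4 to 302.6.

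Dkk3, a secreted member of the Dickkopf family, was the 1 probe set of 6 secreted and membrane antagonists that passed. WT arrays read 54.6 at the lowest, 92.4 at the median and 234.4 at the highest, adenoma arrays 487.1 to 708.7 and carcinoma arrays 330.7 to 574.2. It was 5.72-fold higher in adenoma (2.52 ± 0.36, adjusted p = 0.000145) and 4.61-fold in carcinoma (2.21 ± 0.36, 0.000427), with no overlap between either tumour and WT. In each tumour it kept its call in 28 of 29 alternatives and lost it only when the Gapdh ratio was added. The median over the 6 antagonists was -0.46 in adenoma and -0.59 in carcinoma.

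No probe set of the destruction complex and its signal transduction passed with limma in either tumour, of 32 tested. Beta-catenin itself (Ctnnb1) read 1442.6 to 9927.1 on WT arrays, 5336.3 to 14412.3 on adenoma arrays and 7050.6 to 14680.3 on carcinoma arrays, a log2 difference of 1.01 ± 0.41 in adenoma (adjusted p = 0.145) and 1.2 ± 0.41 in carcinoma (0.0759). Of 20 probe sets of nuclear partners, 0 passed in adenoma, and the corepressor Ctbp2 rose in carcinoma (0.91 ± 0.26, adjusted p = 0.0316), a call lost without any 1 of 7 arrays. The intestinal TCF factor Tcf7l2 differed in the opposite direction to the E protein Tcf4. On its probe set 97660_s_at, WT arrays read 66.7 to 276, adenoma arrays 53.8 to 112.4 and carcinoma arrays 59 to 92.7, a difference of -1.08 ± 0.37 in adenoma (adjusted p = 0.0805) and -0.90 ± 0.37 in carcinoma (0.139). On 102241_f_at the differences were -0.50 ± 0.21 and -0.30 ± 0.21 (0.16 and 0.404), so neither probe set passed.

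Other genes reported as beta-catenin targets gave more calls than the 9 classical ones. Of 45 tested probe sets, 13 rose (28.9%) and 2 fell in adenoma, and 12 rose (26.7%) and 3 fell in carcinoma, beside 3.53% and 3.67% higher among all probe sets. The list was compiled with earlier results of these data known, so its share is no independent evidence, and its median difference was -0.06 in adenoma and 0.00 in carcinoma. The genes that rose on at least 1 probe set were the same 12 in both tumours: Ets2, Fn1, Fst, Gja1, Id2, Jun, Mmp14, Mmp7, Msx1, Plaur, Sox17 and Tnfrsf19. Tnfrsf19, Plaur and Fst were tested only because tumour arrays exceeded the floor. Their WT arrays read 10.7 to 25.3, 16.2 to 155.3 and 33.5 to 171.3, in that order. Their calls, counted in the shares above, are thus no support for a difference. Nr5a2, a nuclear receptor, fell on both its probe sets in both tumours, and 1 probe set of the hormone gastrin (Gast), 162472_f_at, passed as lower in carcinoma (-0.99 ± 0.29, adjusted p = 0.0412). This Gast probe set was tested only because WT arrays exceeded the floor, and carcinoma arrays read 17.8 at the highest. Its difference depends on the floor, and its call is no support for a fall. That call was kept in 6 of 25 alternatives and lost without any 1 of 13 arrays, and on 98797_at Gast differed by -0.47 ± 0.43 (0.546). With single arrays left out, calls were also lost for Tnfrsf19 (without adenoma 2, 3 or 5 in adenoma, and carcinoma 1 or 5 in carcinoma), for Fn1 in adenoma (without adenoma 2) and for Plaur in carcinoma (without carcinoma 2).

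Sox17, an endoderm factor that is also made by endothelium and restrains TCF/beta-catenin activity, was 9.3-fold higher in adenoma (3.22 ± 0.33, adjusted p = 3.6e-06), where its brighter probe set read 1211.6 to 1745.7 against 69.3 to 263.8 in WT. In carcinoma that probe set gave 1.79 ± 0.33 (0.0016). The dimmer one, 92997_g_at, passed as higher in adenoma (1.74 ± 0.31, 0.00137) but not in carcinoma (0.07 ± 0.31, 0.919). It was tested only because adenoma arrays exceeded the floor, with medians of 26.1 in WT and 40.6 in carcinoma. Its adenoma call, counted among the probe sets that rose, is thus no support for a difference. Gja1 was called on 100064_f_at only, and 100065_r_at gave -0.32 ± 0.36 in adenoma (0.622) and 0.40 ± 0.36 in carcinoma (0.521). Matrilysin (Mmp7), a protease that is also a Paneth cell product, was 5.49-fold higher in adenoma (2.46 ± 0.39, 0.000427) and 6.63-fold in carcinoma (2.73 ± 0.39, 0.000121). Follistatin (Fst), which binds activins, was 5.27-fold higher in carcinoma (2.40 ± 0.36, adjusted p = 0.000195). Only 3 of 6 WT arrays of Fst exceeded the floor, so this fold depends on the floor, and the limit given above for its calls holds. Nr5a2 on 103728_at read 532.4 to 923 in WT, 182 to 247.6 in adenoma and 117.6 to 245.5 in carcinoma, a fall by 1.61 ± 0.25 and 1.93 ± 0.25 on the log2 scale (adjusted p = 0.000306 and 4.03e-05). On 102932_at all 5 adenoma arrays were at or below the floor and the fall was at least 4.01-fold, while in carcinoma, where 1 of 5 arrays exceeded the floor, the difference was -1.82 ± 0.24. That probe set was tested only because all 6 WT arrays exceeded the floor, so its calls are no support for a fall. Among 12 Paneth cell genes listed, 5 were on the array, and Mmp7 and Pla2g2a rose while Reg3a fell in both tumours; their summed signal was 4892.8 to 8966 on WT, 7254.7 to 15620.5 on adenoma and 7745.3 to 19017.8 on carcinoma arrays. The part of Paneth cells, and of the fibroblasts and endothelium described beside Tcf4, in the rise of these targets was not tested. The number of probe sets of these targets that rose was 3 in adenoma and 2 in carcinoma once the Gapdh ratio was a covariate, and 9 and 6 once the spike-in signal was.

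**Figure D5:**
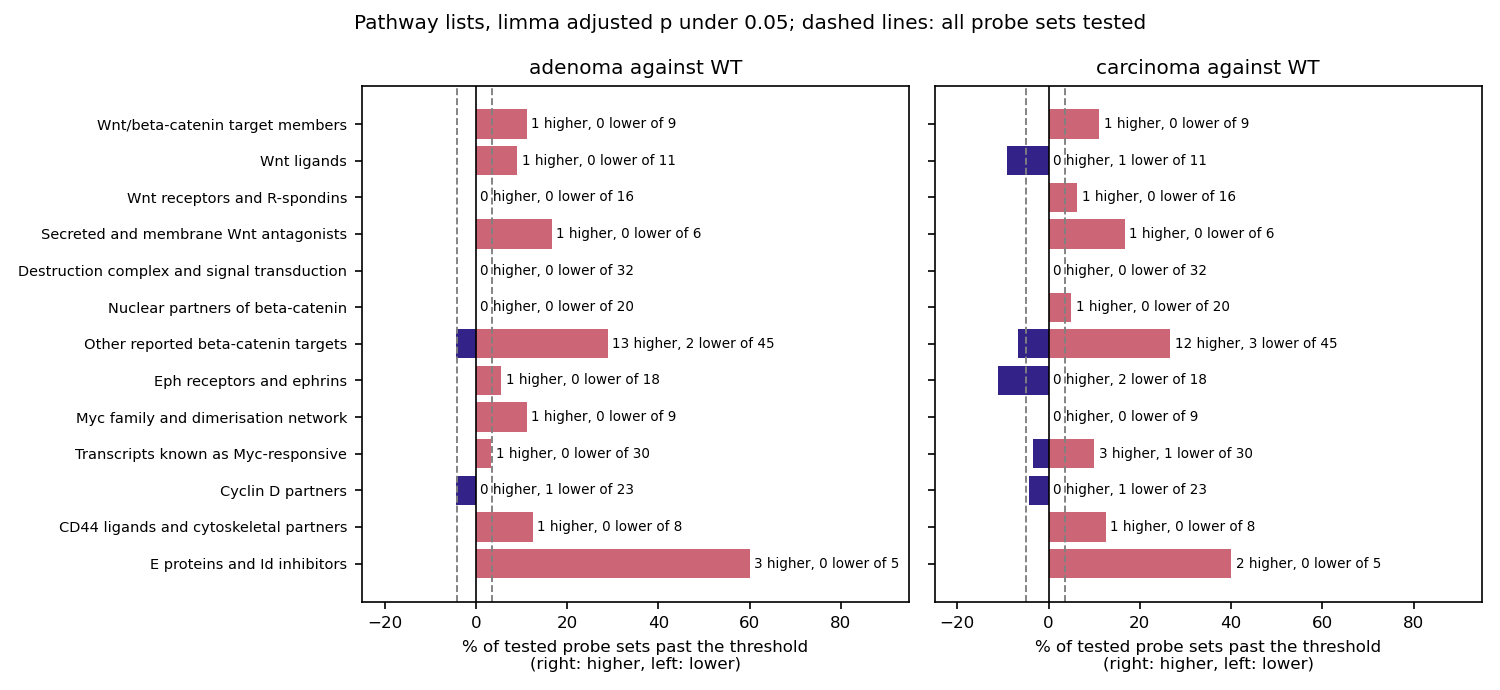
Share of tested probe sets past the threshold, higher (right) and lower (left), in the classical targets and in each pathway list for adenoma and carcinoma against WT, with the shares over all probe sets dashed (3.53% and 4.24% in adenoma, 3.67% and 5.01% in carcinoma). The other reported targets (28.9% and 26.7% higher) and the list of E proteins and Id inhibitors without Tcf4 and Id2 (60% and 40%) reach furthest to the right, and both lists were drawn up with earlier results known.

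The members did not move as a block across arrays. Over the 34 pairs of tested probe sets of different genes, Pearson r on the log2 scale ranged from -0.81 to 0.52 with a median of 0.05, and 2 pairs exceeded 0.5 while 2 fell below -0.5. The lowest was Ccnd1 94231_at with Tcf4, which was -0.75 for deviations from the group means, and the highest was Myc with Cd44. The points share the 16 arrays, their scaling and their control measures, so these values are a description.

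For each member, the tested genes with the most similar profile over the 16 arrays were listed by Pearson r, with the r of deviations from the group means in second place. Tcf4 was closest to Rab11a, a recycling endosome GTPase (0.94 and 0.84), to Jun, a subunit of the AP-1 factor (0.93 and 0.80), and to the surface protein Cd24a (0.92 and 0.84). Axin2 was closest to Fos, the AP-1 partner of Jun (0.84 and 0.89), the actin-severing factor Cfl1 (0.80 and 0.79) and Mrap (0.78 and 0.74). Myc was closest to Smagp (0.90 and 0.92), the ribosome biogenesis factor Utp4 (0.89 and 0.81) and Lrg1 (0.85 and 0.78). Lef1 was closest to the DNA methyltransferase Dnmt3a (0.81 and 0.84), Mob1b (0.81 and 0.80) and the centrin Cetn2 (0.80 and 0.85). Cd44 was closest to Unc45a (0.85 and 0.83), Il11 (0.81 and 0.74) and Ubap2 (0.77 and 0.67). Ccnd1, on 94232_at, was closest to the ribosomal protein Rps3 (0.74 and 0.72), Sec61b (0.72 and 0.71) and Ptn (0.69 and 0.79), and Ephb3 to the kinase Fer (0.72 and 0.71), Tead4 (0.72 and 0.71) and Gstk1 (0.69 and 0.66). No member was among the 3 closest genes of another member.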

How the data were processed

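The authors deposited probe set intensities on a linear scale for 12488 probe sets per array, without raw probe data used here. Per the labels' protocols, laser-captured ileal cells gave RNA that was amplified in 2 rounds, and the software behind the values was not given in the sources used here. Every array had nearly the same trimmed mean (500.3 to 500.4 after trimming 2% at each end), so none was normalized again. Dim probe sets can still differ between arrays as a whole. A floor was set at the 25th percentile of all values (46.9), which understates folds of dim probe sets, and log2 was taken. The 66 control probe sets were left out. Symbols came from the platform annotation: 10833 probe sets had 1 symbol, 396 several and 1193 none. Of these, 10817 carried an Entrez identifier found in a RefSeq gene table of GRCm38.p6, used for names. Suffixes such as _s_at or _r_at mark probe sets of lower specificity.

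The 10563 probe sets that exceeded the floor on 5 or more of 16 arrays were fitted in R 4.3.3 with limma 3.58.1 (lmFit, eBayes, all 3 groups together, 13 residual degrees of freedom), with two-sided tests and Benjamini-Hochberg adjustment over all of them at 0.05. The script was tested on simulated data. No 2 arrays held the same values. Samples were grouped and numbered by their titles. Of 15 pairs of same-numbered arrays of different groups, 6 had a correlation of deviations above 0.1. Whether equal numbers mark paired arrays was not given, and these values do not settle it.

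Every member probe set is named. Per pathway list and comparison up to 4 probe sets past the threshold are named, those with the smallest p, and per member the 3 most similar genes. Tcf7l2, Ctnnb1, Lgr5, Ezr and Efnb1 were named besides for their place in the pathway, after their values were seen. The members, lists, tests and alternatives were chosen with earlier results of these data known. Alternatives were other scalings, floors and filters, 1 probe set per gene, a replicate block, fits of only the 2 groups compared, a robust variance trend, the Gapdh ratio or the spike-in signal as a covariate, leaving out the 4 WT arrays of highest spike-in signal, and each array left out in turn. Python 3.11.15 with matplotlib 3.10.9 drew the figures.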

Additional observations from a re-analysis of the deposited data

Results flagged for a closer look

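In the groups of 5 or 6 arrays, 8 values of member probe sets stood apart from the rest of their group by Dixon's criterion, among 33 groups examined. Chance alone sets apart about 1 in 20 groups, a rate that does not hold where values were set to the floor. Values are log2 signals with the floor at 5.55. Lef1 on 103628_at was low on WT 4 (6.94, nearest array 8.71) and on adenoma 4 (7.03, nearest 8.84). On the other Lef1 probe set, 103629_g_at, WT 4 was high instead (8.08, nearest 6.27), and carcinoma 5 was the only carcinoma array above the floor (6.79). Axin2 was high on adenoma 4 (6.77, nearest 5.82). The untested Cd44 probe sets exceeded the floor on single arrays: 103003_i_at on adenoma 3 (6.21), and 103004_r_at on WT 2 (6.42) and adenoma 2 (6.19). For these 3 Cd44 values and the Lef1 value on carcinoma 5, every other array of the group was at the floor, so any single array above it stands apart by construction.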

How the results depend on the processing

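The 27 member differences were recomputed under up to 29 alternatives, 13 settings and 16 single arrays left out, which gave 744 values. Direction and side of the threshold were kept by 693, 8 fell back from the threshold, 6 newly passed it, and 37 (of 10 differences) changed sign, none of these past the threshold. The number of member probe sets past the threshold, 1 in each tumour against WT, became 2 (Tcf4 and Myc) in each with quantile normalization or aligned array medians, and 0 in each with the Gapdh ratio or the spike-in signal as a covariate, or without the 4 WT arrays of highest spike-in signal (Tcf4 0.99 and 0.83, adjusted p = 0.334 and 0.46). With single arrays left out it ranged from 1 to 2 in adenoma and from 0 to 1 in carcinoma. The 2 came without adenoma 4, where Ccnd1 94231_at passed as lower, and the 0 without carcinoma 4, while without carcinoma 1 Myc passed (1.28, adjusted p = 0.0498) in place of Tcf4.

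Over all probe sets, the count for adenoma against WT (821) became 97 with the Gapdh covariate, 463 with the spike-in covariate and 230 without the 4 WT arrays, and 518 to 966 with single arrays left out, the lowest without adenoma 5. For carcinoma against WT (917) these were 145, 458 and 258, and 634 to 1084. For carcinoma against adenoma (4) the count became 2 with the floor at the 10th percentile, 7 at the 40th, 2 with 1 probe set per gene, 2 with only the 2 groups compared and 11 without the 4 WT arrays, and 4 to 7 with single arrays left out. The share of higher among called probe sets, 45.4% in adenoma and 42.3% in carcinoma, was 60.7% and 57.2% with quantile normalization, 72.7% and 71.7% with aligned medians, 73.2% and 57.2% with the Gapdh covariate, 56.2% and 51.3% with the spike-in covariate and 70.4% and 62.4% without the 4 WT arrays. The median difference over all probe sets moved from -0.18 and -0.17 to -0.04 and -0.02 with quantile normalization and to 0.07 and 0.10 with aligned medians.

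Signs changed as follows. With the Gapdh covariate, adenoma against WT gave -0.15 for Myc, -0.10 for Lef1 103628_at and -0.77 for 103629_g_at, and carcinoma against WT gave -0.24 for Axin2, -0.001 for Myc and -0.14 for Ccnd1 94232_at. With the spike-in covariate, Lef1 gave -0.33 on 103628_at and -0.006 on 103629_g_at in adenoma, and Ccnd1 94231_at 0.023 in carcinoma. Without the 4 WT arrays Lef1 103628_at gave -0.091 in adenoma, and with the floor at the 10th percentile 103629_g_at gave -0.13. Ephb3 in carcinoma against adenoma gave 0.05 with quantile normalization and 0.042 with aligned medians. With single arrays left out, the ranges that crossed 0 were, in adenoma against WT, -0.26 to 0.48 for Lef1 103628_at and -0.10 to 0.15 for 103629_g_at; in carcinoma against WT, -0.077 to 0.43 for Axin2 and -0.06 to 0.17 for Ccnd1 94232_at; in carcinoma against adenoma, -0.30 to 0.29 for Ephb3, -0.12 to 0.32 for Myc and -0.36 to 0.034 for Tcf4. The causes were not tested.

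It was not given whether the replicate numbers pair the arrays. The correlations of deviations of same-numbered arrays ran from -0.25 to 0.36, and 6 of 15 correlated best with their own number, which does not settle it. With a replicate block, Tcf4 was 1.42 ± 0.32 in adenoma (limma adjusted p = 0.0143) and 1.27 ± 0.32 in carcinoma (0.0232), Lef1 103629_g_at turned to -0.10 in adenoma, and 1050, 1181 and 5 probe sets passed in the 3 comparisons. The block changed no other member call. Probe sets near the floor, such as those of Cd44, Axin2, Ephb3 and Lef1 103629_g_at, limit what these arrays can show.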
